A study of Mus musculus with 15 samples.

Results

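ISG15 is a ubiquitin-like protein that cells attach to other proteins, and 6 genes of this system and of the related modifier FAT10 are described here across a mouse mammary tumour series: Isg15, Uba7, Ube2l6, Herc6, Usp18 and Ubd. The genes were chosen by name, with earlier results of these data known. Their probes were found through the RefSeq transcript that the array annotation gives for each probe. They are 6 of the 37119 genes or unnamed transcripts on the array, measured by 8 of its 55681 probes, because Isg15 and Herc6 have 2 probes each. All 6 passed the filter on dim probes, which left 28025 genes or unnamed transcripts for testing.

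The arrays held total RNA of whole mammary tumours from female mice carrying the MMTV-PyMT transgene, in which a mammary-active viral promoter drives the polyoma middle T oncogene and tumours grow from the mammary epithelium. All groups share that transgene, and treatment began at 7 weeks of age. The T0 group (n = 4) holds tumours taken before any drug. The remaining tumours were taken once treatment ended, and fall into vehicle (n = 3), B20 (n = 4) and nintedanib (n = 4) groups. B20, listed as B20-4.1.1, is an antibody against the growth factor VEGF, injected at 5 mg per kg in 2 doses a week, and nintedanib is an oral inhibitor of several receptor tyrosine kinases, those for VEGF among them, given at 85 mg per kg per day. The labels do not give the length of treatment, the strain, or whether each array is a separate animal, so the p-values reflect only how these samples spread, and that spread may be technical. One T0 array, replicate 4, is labelled both as vehicle-treated and as taken before treatment, and was kept in T0 by its title.

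Type I interferon strongly induces ISG15. UBA7 activates it, UBE2L6 carries it, HERC6 is the main ligase that attaches it to target proteins in the mouse, and USP18 removes it. USP18 also binds the interferon receptor and restrains its signalling. FAT10, the product of Ubd, is a second interferon-inducible modifier, activated by a different enzyme, that sends its targets to the proteasome; interferon gamma and tumour necrosis factor induce it together.

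The upstream sequences of Isg15 and Ubd are shown because they hold and lack, respectively, the interferon-stimulated response element, a motif found upstream of many interferon-induced genes, and because the levels of these genes differed in their pattern over the groups. Both are the 250 bases before the RefSeq start in the GRCm38.p6 build, written 5′ to 3′ on the strand of the gene. Capitals mark every match, on either strand, to the core of that element: GAAA, any 2 bases, GAAA. The Isg15 window is chr4:156200819-156201068 on the minus strand and the Ubd window chr17:37193642-37193891 on the plus strand.
Isg15: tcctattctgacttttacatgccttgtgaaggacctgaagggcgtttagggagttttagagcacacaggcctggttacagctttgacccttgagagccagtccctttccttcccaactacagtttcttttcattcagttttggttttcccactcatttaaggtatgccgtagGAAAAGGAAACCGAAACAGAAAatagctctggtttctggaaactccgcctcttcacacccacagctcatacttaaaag
Ubd: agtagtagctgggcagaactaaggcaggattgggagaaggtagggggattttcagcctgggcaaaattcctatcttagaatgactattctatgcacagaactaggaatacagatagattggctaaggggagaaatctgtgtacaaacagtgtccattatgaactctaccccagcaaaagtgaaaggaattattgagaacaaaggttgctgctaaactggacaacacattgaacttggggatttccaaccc

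The capital run of Isg15 is 3 overlapping matches. They are GAAAAGGAAA from 78 to 69 bases before the start, GAAACCGAAA from 72 to 63 and GAAACAGAAA from 66 to 57. Of the 6 genes, 5 had a promoter in the RefSeq table, and no match was found in the windows of Ube2l6 (chr2:84798578-84798827, plus strand), Uba7 (chr9:107975317-107975566, plus strand), Herc6 (chr6:57580742-57580991, plus strand) or Ubd. Of all 32851 promoters in that table, 978 (2.98%) held the core in the same window. The core of the gamma-activated site, TTCNNNGAA, was in 7.02% of all promoters and in none of the 5. The absence of a match says only that these letters are not in the window.

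The levels below are log2 processed signals minus the 75th percentile of the same array, so that 0 is the 75th percentile. A level can be compared between arrays for 1 probe, and not between probes. Markers of mammary epithelium were present on all 15 arrays: all 10 listed genes, Epcam, Krt8 and Elf5 among them, were well above background on each. Between 54.6% and 84.4% of spots were well above background per array, with T0 replicate 3 at 84.4% and the next array at 68.8%. The number of arrays, not a read depth, limits the precision. In whole tumours, fewer cells of a type and less RNA per cell cannot be told apart.

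T0 replicate 4 had higher levels of Isg15, Usp18 and Herc6 than the other T0 arrays. Its Isg15 level was 1.82 above the mean of the other T0 arrays, its Usp18 level 1.82 above and its Herc6 level 1.08 above. The corresponding values were 0.35 for Ube2l6, -0.10 for Uba7 and -0.07 for Ubd. Over all tested genes this array correlated most closely with vehicle replicate 2 (r = 0.974), whereas T0 replicates 1 and 2 were closest to each other (r = 0.985). T0 replicate 3 was closest to T0 replicate 4 (r = 0.957). Replicates 1 and 2 shared slide 3, and replicates 3 and 4 shared slide 4. The Ubd level of replicate 4 (-2.66) lay within the range of the other T0 arrays. Differences of the 6 genes against T0 are therefore given with and without it.

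Isg15, the modifier itself, had levels of 3.97, 3.33, 3.78 and 5.51 on the T0 arrays and 4.69, 3.50 and 4.51 on the vehicle arrays. Its levels were 5.66, 6.44, 5.76 and 6.13 with B20 and 6.35, 5.15, 5.91 and 5.89 with nintedanib. All 8 drug arrays lay above all 3 vehicle arrays, and the only T0 array in their range was replicate 4. The group means were 4.15 ± 0.95 (SD, n = 4) at T0, 4.24 ± 0.64 (n = 3) with vehicle, 5.83 ± 0.50 (n = 4) with nintedanib and 6.0 ± 0.36 (n = 4) with B20. In this order, the neighbours T0 and vehicle, and likewise nintedanib and B20, differed by less than their SDs. The nintedanib mean was 1.59 ± 0.46 (SE) above vehicle, a 3.01-fold ratio, and limma's test gave an unadjusted p of 0.00428 and an adjusted p of 0.715. Within the slides that held both groups, the difference was 1.71 on slide 1 and 1.38 on slide 2. The B20 mean was 1.76 ± 0.46 above vehicle (adjusted p = 0.999), with 1.86 on slide 1 and 1.62 on slide 2. The second Isg15 probe followed the first over the 15 arrays (r = 0.995) and gave differences of 1.81 for nintedanib and 1.83 for B20.

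**Figure D1:**
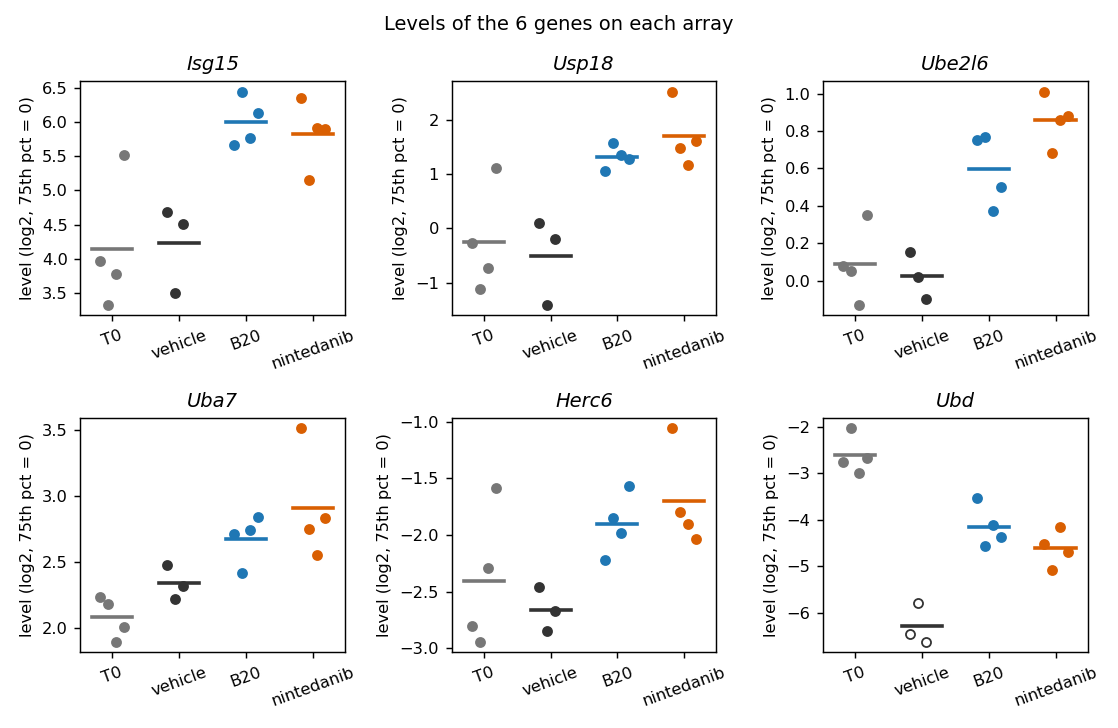
Level of each gene on each of the 15 arrays, as log2 signal relative to the array's 75th percentile, with 1 panel a gene and its own vertical scale; points are arrays, bars are group means, and open points are not well above background. For Isg15, Usp18, Ube2l6, Uba7, Herc6 and Ubd all 4 nintedanib arrays lie above all 3 vehicle arrays, and Ubd alone of the 6 has its highest levels at T0.

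Uba7, the activating enzyme, had levels of 2.24, 2.18, 1.90 and 2.01 at T0, and 2.48, 2.22 and 2.32 with vehicle. The levels were 2.71, 2.42, 2.74 and 2.84 with B20 and 3.51, 2.75, 2.55 and 2.83 with nintedanib. The nintedanib arrays all lay above the vehicle arrays, whereas B20 replicate 2 fell within the vehicle range. The means were, from low to high, T0 (2.08 ± 0.15), vehicle (2.34 ± 0.13), B20 (2.68 ± 0.18) and nintedanib (2.91 ± 0.42), and the last pair differed by less than the nintedanib SD. Uba7 was 0.57 ± 0.21 above vehicle with nintedanib (adjusted p = 0.928), at 0.59 on slide 1 and 0.51 on slide 2. With B20 it was 0.34 ± 0.21 above vehicle (adjusted p = 0.999), at 0.27 and 0.51 on those slides. Nintedanib replicate 1 carried much of the Uba7 mean: without it the nintedanib difference was 0.37.

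Ube2l6, the conjugating enzyme that passes ISG15 on from UBA7, had levels of 0.08, 0.05, -0.13 and 0.35 at T0, and 0.15, 0.02 and -0.10 with vehicle. With B20 they were 0.75, 0.77, 0.37 and 0.50, and with nintedanib 1.01, 0.68, 0.86 and 0.88. Every drug array was above every vehicle array and every T0 array. The means were 0.02 ± 0.13 with vehicle, 0.09 ± 0.20 at T0, 0.60 ± 0.20 with B20 and 0.86 ± 0.14 with nintedanib, and the first pair differed by less than their SDs. Ube2l6 was 0.83 ± 0.16 above vehicle with nintedanib, 1.78-fold, with an adjusted p of 0.275. Within slides 1 and 2 the difference was 0.76 and 0.98. With B20 it was 0.57 ± 0.16 above vehicle (adjusted p = 0.999), at 0.54 and 0.60 on those slides.

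Herc6, the ligase, gave levels of -2.80, -2.94, -2.29 and -1.59 at T0, and -2.46, -2.85 and -2.67 with vehicle. The B20 levels were -2.22, -1.85, -1.98 and -1.57, and the nintedanib levels -1.06, -1.80, -1.90 and -2.04. The vehicle arrays lay below all 8 drug arrays, and T0 replicate 4 lay among the drug arrays. The means were -2.66 ± 0.19 with vehicle, -2.40 ± 0.61 at T0, -1.90 ± 0.27 with B20 and -1.70 ± 0.44 with nintedanib, and neighbours differed by less than the larger of their SDs. Against vehicle, Herc6 differed by 0.96 ± 0.31 with nintedanib (adjusted p = 0.877) and by 0.76 ± 0.31 with B20 (adjusted p = 0.999). The nintedanib difference was 1.07 on slide 1 and 0.63 on slide 2, and the B20 difference 0.64 and 1.10. The second Herc6 probe correlated less closely with the first than was seen for Isg15 (r = 0.791 over 15 arrays) and gave 1.04 and 0.69. On it, B20 replicate 3 (-3.20) lay below vehicle replicate 1 (-3.12), so the B20 and vehicle groups overlapped, while all nintedanib arrays stayed above vehicle. After a normal-exponential background correction of the median signal, the Herc6 differences were 0.57 for nintedanib and 0.52 for B20.

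Usp18, the protease that removes ISG15, had levels of -0.27, -1.12, -0.73 and 1.11 at T0, and 0.10, -1.41 and -0.20 with vehicle. Its levels were 1.06, 1.58, 1.35 and 1.28 with B20 and 2.52, 1.49, 1.16 and 1.62 with nintedanib. All drug arrays were above all vehicle arrays, and T0 replicate 4 was above B20 replicate 1. The means were -0.50 ± 0.80 with vehicle, -0.25 ± 0.97 at T0, 1.32 ± 0.21 with B20 and 1.70 ± 0.58 with nintedanib. Vehicle and T0 differed by less than their SDs, as did B20 and nintedanib against the nintedanib SD. With nintedanib Usp18 was 2.20 ± 0.49 above vehicle, 4.60-fold, at an adjusted p of 0.43. Only 0.182% of all tested genes had a larger positive difference in that comparison. The B20 difference was 1.82 ± 0.49 (adjusted p = 0.999). Within slides 1 and 2 the nintedanib difference was 2.38 and 1.82, and the B20 difference 1.99 and 1.48.

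Ubd, which encodes FAT10, was dim: its probe was well above background on the 12 arrays of the T0 and drug groups and on none of the 3 vehicle arrays. Its levels were -2.75, -2.03, -2.99 and -2.66 at T0, and -6.45, -5.79 and -6.62 with vehicle. They were -3.53, -4.57, -4.12 and -4.36 with B20 and -4.53, -5.08, -4.15 and -4.70 with nintedanib. At these levels, no T0 array overlapped a drug array, and no drug array overlapped a vehicle array. The processed signals behind these levels were 47.5 to 85.9 at T0, 3.50 to 7.89 with vehicle, 14.7 to 33.2 with B20 and 15.5 to 24.5 with nintedanib. The lowest signal among well-measured probes of the vehicle arrays, a mean level of -5.14, was taken as the vehicle bound on the processed signal. The measured vehicle mean was -6.29 ± 0.44. Against that bound, Ubd was 5.79-fold higher at T0 (mean -2.61 ± 0.41), 2-fold higher with B20 (-4.14 ± 0.45) and 1.44-fold higher with nintedanib (-4.62 ± 0.39). These folds hold on that scale only. After a normal-exponential correction of the median signal, vehicle replicate 3 (-2.58) lay above nintedanib replicates 1 (-2.61), 2 (-3.10) and 4 (-2.66). The vehicle and nintedanib groups therefore overlapped on that corrected scale. On the authors' deposited values the measured log2 differences were smaller: 0.27 for B20 and 0.21 for nintedanib against vehicle, and -0.89 for vehicle minus T0.

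Over the 6 genes, none passed limma's test of either drug against vehicle at an adjusted p under 0.05, and neither did any other gene (0% of 28025 in each comparison). In the nintedanib comparison 1355 genes had an unadjusted p under 0.05, which is 4.83%, and all 6 of these genes were among them. The groups did not overlap, with nintedanib higher, for 6 of 6 genes against 3.22% of all genes tested. For Ubd they overlapped after the normal-exponential correction of the median signal. With B20, 911 genes (3.25%) had an unadjusted p under 0.05, and 5 of the 6 were among them. The groups did not overlap, with B20 higher, for 5 of 6 genes against 2.8% of all genes, and Uba7 was the exception (on the second Herc6 probe Herc6 overlapped too). The median difference of the 6 was 1.27 with nintedanib and 1.26 with B20, where the median of all genes was -0.01 and 0.04. With Ubd at its bound these medians were 0.90 and 0.88. On the authors' deposited values the medians of the 6 were 0.69 and 0.47, and after the normal-exponential correction of the median signal 0.67 and 0.50. Both comparisons use the same 3 vehicle arrays. The 6 genes were chosen with earlier results of these data known, so the counts beside the shares of all genes describe and do not test. For Ubd, 2-fold higher with B20 and 1.44-fold higher with nintedanib against its bound on the processed signal, limma's adjusted p on the measured levels was 0.254 and 0.275. Leaving out vehicle replicate 2, the lowest vehicle array for Isg15 and Usp18, gave Isg15 1.22 and Usp18 1.75 with nintedanib, and 1.40 and 1.37 with B20.

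**Figure D2:**
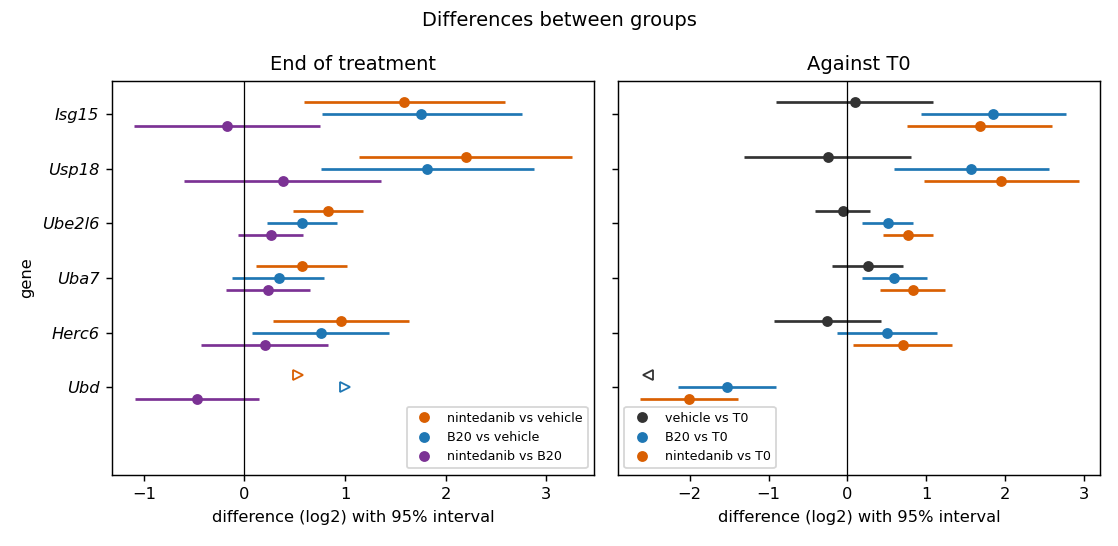
Difference in level of each gene between groups on the log2 scale with its 95% confidence interval from the fit over 15 arrays; the left panel holds the comparisons at the end of treatment and the right panel those against T0. The nintedanib minus B20 intervals all span 0, and vehicle minus T0 spans 0 for the 5 genes other than Ubd. Open arrowheads give the difference of Ubd from its vehicle bound on the processed signal, since the vehicle arrays are not well above background. They do not hold on the other scales.

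The 2 drugs were next compared with each other, a comparison that does not use the vehicle arrays as a reference. No gene of the 6 passed the test, nor did any of the 28025 genes (0%), of which 2628 had an unadjusted p under 0.05. None of the 6 had an unadjusted p under 0.05, and for all of them the nintedanib and B20 arrays overlapped, where 2.13% of all genes did not overlap with nintedanib higher and 3.59% with B20 higher. The difference of nintedanib minus B20 was -0.17 for Isg15, with a 95% interval from -1.10 to 0.75. For Usp18 it was 0.38 (-0.60 to 1.36) and for Ube2l6 0.26 (-0.06 to 0.58). For Uba7 it was 0.23 (-0.18 to 0.65), for Herc6 0.20 (-0.43 to 0.83) and for Ubd -0.47 (-1.09 to 0.15). These intervals leave room for a difference in either direction of each gene, so the test does not show that the drugs act alike on them. On slide 1 the differences were -0.15 for Isg15, 0.39 for Usp18, 0.22 for Ube2l6, 0.31 for Uba7, 0.43 for Herc6 and -0.52 for Ubd. On slide 2, with 1 array per drug, Isg15 was at -0.24, Usp18 at 0.34, Ube2l6 at 0.39, Uba7 at 0, Herc6 at -0.48 and Ubd at -0.34.

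Scaling the arrays in other ways changed the size of these differences little for Isg15, Usp18, Ube2l6 and Uba7, more for Herc6 and most for Ubd. With the authors' deposited normalised values in place of the processed signal, the nintedanib difference from vehicle was 1.69 for Isg15, 2.02 for Usp18, 0.78 for Ube2l6, 0.60 for Uba7 and 0.57 for Herc6. For Ubd, whose vehicle arrays are not well above background, the measured nintedanib difference was 0.21 on those values, 0.13 after the normal-exponential correction and 1.67 on the processed signal. The measured B20 difference was 0.27, 0.46 and 2.15. Ubd kept its sign on each of these scales, while its size against vehicle differed between them by more than for any of the other 5 genes, and the cause was not tested.

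**Figure D3:**
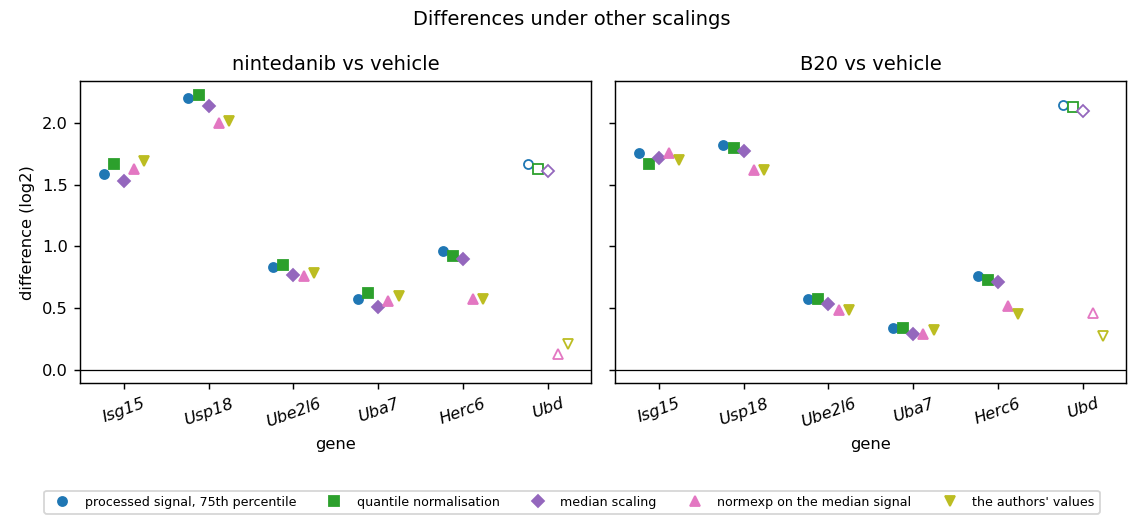
Difference of each gene from vehicle on the log2 scale under 5 ways of scaling the arrays, with nintedanib on the left and B20 on the right. Symbols of the 5 scalings lie close together for Isg15, Usp18, Ube2l6 and Uba7, whereas for Ubd, drawn open because its vehicle arrays are not well above background, the normal-exponential correction and the authors' values lie at 0.13 to 0.46.

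The comparison of vehicle with T0 spans the treatment period without a drug. Ubd fell: against its bound on the processed signal it was 5.79-fold lower with vehicle. The measured means were -2.61 at T0 and -6.29 with vehicle (adjusted p = 0.000488), the latter below what the arrays measure well. Of all genes, 2.8% were called higher and 2.12% lower in that comparison, and in 6.95% the groups did not overlap with vehicle lower, as for Ubd. The call held on the authors' deposited values (-0.89, adjusted p = 0.0116), after the normal-exponential correction (-0.99, adjusted p = 0.0124) and without any 1 array. The ISG15 genes did not pass: the differences were 0.09 ± 0.46 for Isg15, -0.25 ± 0.49 for Usp18, -0.06 ± 0.16 for Ube2l6, 0.26 ± 0.21 for Uba7 and -0.26 ± 0.31 for Herc6, with adjusted p from 0.532 to 0.945. Without T0 replicate 4 these were 0.54 for Isg15, 0.20 for Usp18, 0.02 for Ube2l6, 0.23 for Uba7 and 0.01 for Herc6, and the Ubd call held (adjusted p = 0.000541). Vehicle and T0 arrays were on different slides and scanned on different days, so slide, day and group cannot be told apart in any comparison with T0.

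Markers of other cells moved with T0. All 8 adipocyte markers were lower than at T0 with vehicle, with nintedanib and with B20. The test called 8, 7 and 7 of them (8, 6 and 7 without T0 replicate 4). Beside these counts and the endothelial counts below, 2.12%, 4.62% and 3.74% of all genes were called lower. Without T0 replicate 4 these shares were 3.69%, 6.01% and 5.02%. The summed adipocyte signal, in multiples of the array's 75th percentile, was 392 to 1440 at T0, 10.7 to 61.5 with vehicle, 41.5 to 196 with B20 and 38.1 to 277 with nintedanib. On T0 replicate 4 it was 457. The skeletal muscle sum was 26.8 to 1350 at T0 and 6.20 to 49.4 with vehicle, with none of 8 markers called. Endothelial markers were lower than at T0 in 10 of 10 genes with vehicle, 10 with nintedanib and 9 with B20, of which 1, 2 and 7 were called (2, 2 and 7 without T0 replicate 4), with sums of 29.6 to 70.0 at T0, 26.7 to 38.7 with vehicle, 23.3 to 33.2 with nintedanib and 27.7 to 34.7 with B20. Over the 15 arrays the Ubd level correlated with the log2 adipocyte sum (r = 0.863, n = 15), with r = 0.676 over the 11 end arrays and r = 0.312 after each group's mean was removed. For Isg15 the same values were -0.255, 0.516 and -0.236. With the B and plasma cell sum, the Ubd level had r = 0.595, 0.778 and 0.549 in the same order, and with the macrophage sum -0.0503, 0.472 and 0.649. With the skeletal muscle sum it had 0.653, 0.565 and 0.439, and with the erythroid sum 0.522, 0.468 and 0.236. For the remaining marker lists, r with Ubd over the 15 arrays ranged from -0.496 (neutrophils) to 0.506 (endothelium). The B and plasma cell sum was 0.873 to 1.43 at T0 and 0.581 to 0.707 with vehicle, and the T and NK cell sum 9.89 to 11.5 and 8.18 to 9.76, without overlap. The Ubd correlations use measured vehicle levels that are not well above background. The part of these cells in the Ubd result was not tested.

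Against T0, nintedanib tumours had 4 of the 6 genes called higher and Ubd called lower, where 6.83% of all genes were called higher and 4.62% lower. Usp18 rose by 1.95 ± 0.46 (adjusted p = 0.0176), Ube2l6 by 0.77 ± 0.15 (adjusted p = 0.00863) and Uba7 by 0.83 ± 0.19 (adjusted p = 0.0177). Isg15 rose by 1.68 ± 0.43 (adjusted p = 0.0252). Ubd fell by 2.01 ± 0.29 (adjusted p = 0.00297). Herc6 was 0.70 ± 0.29 higher and did not pass (adjusted p = 0.132), and its second probe gave 0.46. The groups did not overlap, with nintedanib higher, for Usp18, Ube2l6 and Uba7, against 9.4% of all genes, and with nintedanib lower for Ubd, against 7.46%. Without T0 replicate 4 the differences were 2.13 for Isg15, 2.40 for Usp18, 0.86 for Ube2l6, 0.80 for Uba7 and -2.03 for Ubd, all called, and Herc6 passed as well (0.97, adjusted p = 0.0261). In that fit 7.45% of all genes were called higher and 6.01% lower. The Isg15 call was lost without T0 replicate 1 (1.62, adjusted p = 0.0656), T0 replicate 2 (1.40, 0.0725), nintedanib replicate 1 (1.5, 0.0758), nintedanib replicate 3 (1.65, 0.0559) or nintedanib replicate 4 (1.65, 0.0549). The Usp18 call was lost without T0 replicate 2 (1.66, adjusted p = 0.0509) or nintedanib replicate 1 (1.67, 0.0555). The calls of Ube2l6, Uba7 and Ubd held without any 1 array. Scaling to the array median instead of the 75th percentile lost the calls of Isg15 (adjusted p = 0.0648), Ube2l6 (0.204) and Uba7 (0.159), and fitting these groups alone lost those of Isg15 (0.0777), Usp18 (0.0612) and Uba7 (0.0746).

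Against the same T0 arrays, B20 tumours had 3 of the 6 genes called higher and Ubd called lower, where 5.79% of all genes were called higher and 3.74% lower. Isg15 rose by 1.85 ± 0.43 (adjusted p = 0.0206), Usp18 by 1.57 ± 0.46 (adjusted p = 0.0468) and Ube2l6 by 0.51 ± 0.15 (adjusted p = 0.0495). Ubd fell by 1.53 ± 0.29 (adjusted p = 0.00983), and this call was lost after the normal-exponential correction (-0.53, adjusted p = 0.0898). Uba7 at 0.59 ± 0.19 (adjusted p = 0.0705) and Herc6 at 0.50 ± 0.29 (adjusted p = 0.301) did not pass, and the second Herc6 probe gave 0.11. Without T0 replicate 4 the differences were 2.31 for Isg15, 2.02 for Usp18, 0.60 for Ube2l6 and -1.55 for Ubd, all called, with 0.57 for Uba7 and 0.77 for Herc6 not called. In that fit 6.8% of all genes were called higher and 5.02% lower. The groups did not overlap, with B20 higher, for Isg15, Ube2l6 and Uba7, against 9.28% of all genes, and with B20 lower for Ubd, against 6.2%. Usp18 and Ube2l6 sat at the threshold. The Usp18 call was kept in 4 of the 15 fits that leave out 1 array, those without T0 replicate 4, vehicle replicate 1 or 2, or nintedanib replicate 1, and adjusted p ranged from 0.00778 to 0.123. The Ube2l6 call was kept in 2 of the 15, without T0 replicate 4 or B20 replicate 3, and adjusted p ranged from 0.0249 to 0.116. The Isg15 call was lost without T0 replicate 1 (1.79, adjusted p = 0.0572), T0 replicate 2 (1.58, 0.0579), B20 replicate 2 (1.70, 0.0603) or B20 replicate 4 (1.81, 0.0593), or when these groups were fitted alone (0.0613). Uba7 gained a call without nintedanib replicate 1 (0.59, adjusted p = 0.0295).

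The levels of the ISG15 genes were correlated from array to array. Isg15 and Usp18 correlated at r = 0.950 over the 15 arrays, and at 0.905 after each group's mean was removed. Isg15 correlated with Ube2l6 at 0.855, with Herc6 at 0.850 and with Uba7 at 0.680, and within groups these were 0.626, 0.775 and 0.152. Ubd did not follow them over all arrays (r = -0.128 with Isg15), and over the 11 end arrays r was 0.735. Both Ubd values use measured vehicle levels that are not well above background. The arrays share their scaling and their group differences, so these values describe and do not test.

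**Figure D4:**
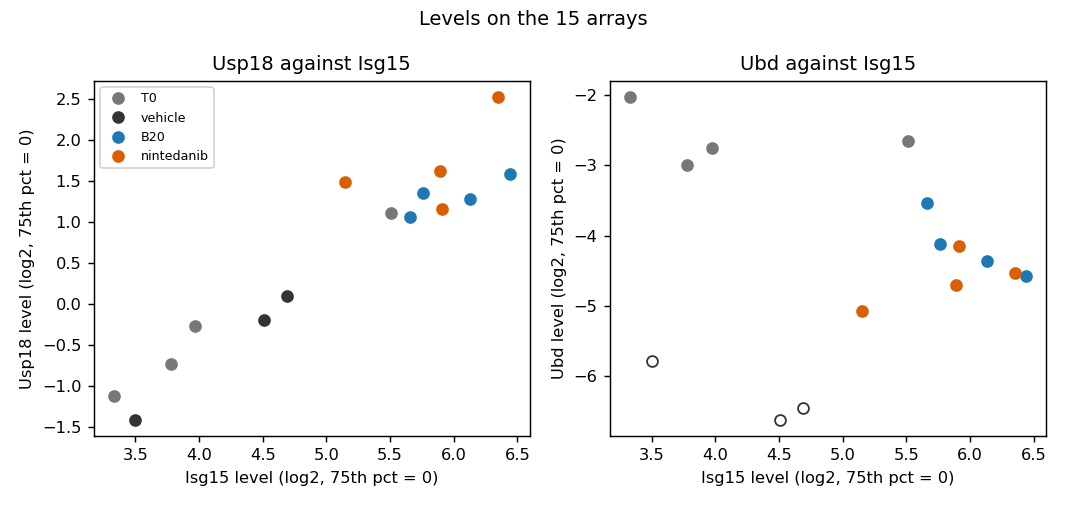
Usp18 level (left) and Ubd level (right) against Isg15 level on the 15 arrays, in log2 units relative to the array's 75th percentile, coloured by group; open points are vehicle arrays where Ubd is not well above background. Usp18 follows Isg15 across all groups (r = 0.950), while the 4 T0 arrays have the highest Ubd levels, 3 of them at low Isg15 levels and replicate 4 at an Isg15 level of 5.51.

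For each of the 6 genes, the 3 named genes with the most similar levels over the 15 arrays were found by Pearson's r. For Isg15 they were Oas1a (r = 0.969), an RNA-sensing antiviral enzyme, Ifit1 (0.967), which binds viral RNA, and Xaf1 (0.965). For Usp18 they were Ifit3b (0.984), Ifit3 (0.978) and Ifit1 (0.977). For Ube2l6 they were Xaf1 (0.933), the interferon-induced GTPase Igtp (0.930) and Irf7 (0.930), and for Herc6 Ifi44 (0.922), Ifit1 (0.909) and Oas2 (0.907). Uba7 was closest to Trim34a (0.939), Phf1 (0.908) and Rflna (0.905). Ubd, with measured vehicle levels that are not well above background, was closest to Zfp9 (0.948), the heat-sensing channel gene Trpv1 (0.934) and B3galt2 (0.920).

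The other genes of ubiquitin-like conjugation were set beside these 6. None of them was called in either comparison with vehicle, where 0% of the 28025 genes were, the 6 included. Their list medians lay near the median of all genes, which was -0.01 with nintedanib and 0.04 with B20. Of 7 further ISG15 ligases and proteases known to act on ISG15, 2 were higher with nintedanib and 3 with B20, with medians of -0.09 and -0.02. Those with the largest nintedanib difference were Usp13 at 1.23 ± 1.23, well above background on 1 of 3 vehicle arrays, Usp14 at -0.25 ± 0.17 and Arih1 at -0.18 ± 0.20. In the FAT10 pathway, the activating enzyme Uba6 was at -0.34 ± 0.20, the FAT10-binding autophagy receptor Sqstm1 at 0.43 ± 0.34 and Hdac6 at -0.17 ± 0.23 with nintedanib, and 1 of 5 genes was higher. The 4 other HERC genes, Herc4 (-0.29 ± 0.17), Herc3 (0.27 ± 0.19), Herc2 and Herc1, had a median of -0.17 with nintedanib and 0.06 with B20. For SUMO conjugation (15 genes measured) the medians were -0.10 and 0.06, for NEDD8 conjugation (10 genes) -0.14 and 0.13, and for UFM1 and URM1 conjugation (8 genes) -0.08 and 0.08. For the autophagy conjugation system (12 genes) they were 0.10 and 0.17, and for ubiquitin with its E1 and E2 enzymes (20 genes) -0.08 and 0.

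**Figure D5:**
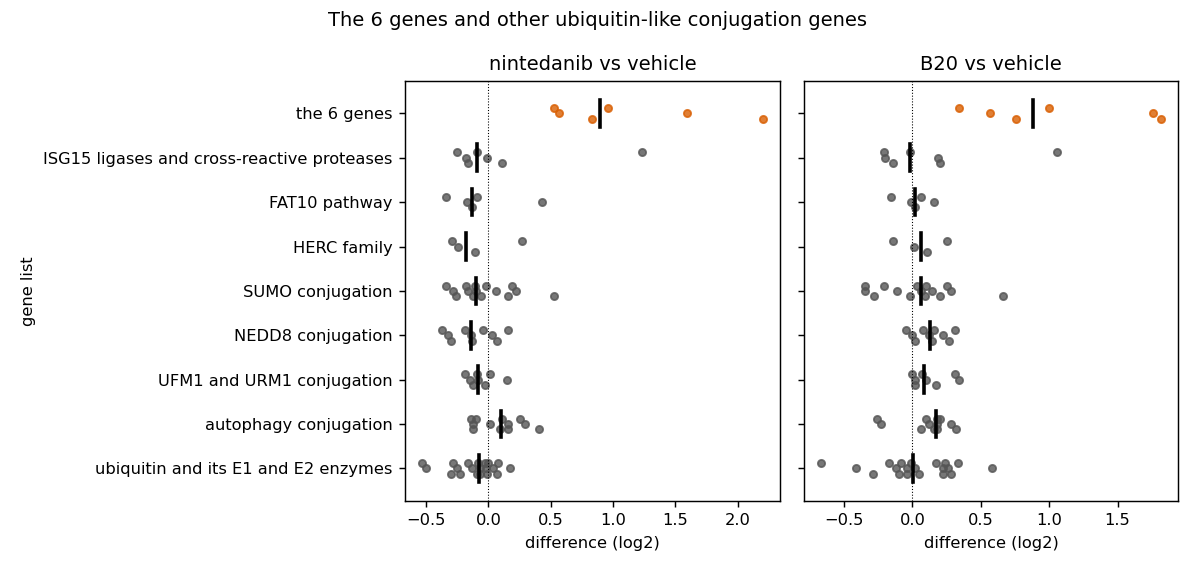
Difference from vehicle on the log2 scale for the 6 genes and for each measured gene of 8 other conjugation lists, with nintedanib on the left and B20 on the right; points are genes and vertical bars are list medians. Ubd is drawn at its bound on the processed signal (0.53 and 1), the 6 genes lie between 0.34 and 2.20, and the medians of the other lists lie between -0.17 and 0.17.

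Upstream of these genes, the interferon receptors and their transcription factors (15 genes) had a median difference of 0.03 with nintedanib and 0.13 with B20. Irf7, a transcription factor that amplifies type I interferon, was at 2.30 ± 0.44 with nintedanib (adjusted p = 0.275) and 1.73 ± 0.44 with B20 (adjusted p = 0.999). Irf9, a transcription factor that binds the interferon-stimulated response element, was at 0.60 ± 0.17 and 0.61 ± 0.17, and Stat2 at 0.51 ± 0.29 and 0.58 ± 0.29. Against T0, the test called 3 of the 15 higher and 2 lower with each drug, and 0 higher and 1 lower with vehicle. Of all genes, it called 6.83% higher and 4.62% lower with nintedanib and 5.79% and 3.74% with B20. With vehicle these shares were 2.8% and 2.12%. With nintedanib, Tyk2, a kinase of the interferon receptor, rose by 0.77 ± 0.19 (adjusted p = 0.0192), while the receptor chain Ifngr1 (-0.74 ± 0.17, adjusted p = 0.0172) and the kinase Jak2 (-0.64 ± 0.18, adjusted p = 0.0361) fell. With B20, the feedback inhibitor Socs3 rose by 1.07 ± 0.21 (adjusted p = 0.0108), while the receptor chains Ifnar1 (-0.59 ± 0.17, adjusted p = 0.0404) and Ifnar2 (-0.60 ± 0.14, adjusted p = 0.0217) fell. Irf7 rose in both drug groups (2.60 ± 0.41, adjusted p = 0.00388, and 2.03 ± 0.41, adjusted p = 0.0128), as did Irf9 (0.69 ± 0.16, adjusted p = 0.0152, and 0.70 ± 0.16, adjusted p = 0.0183). Without T0 replicate 4, Irf7 was at 2.96 and 2.39 and Irf9 at 0.84 and 0.85, all called. The calls of the list were then 3 higher and 2 lower with nintedanib and 3 higher and 1 lower with B20. In that fit vehicle minus T0 was -0.71 for Ifngr1, -0.48 for Jak2 and 0.45 for Tyk2. It was 0.74 for Socs3, -0.15 for Ifnar1 and -0.52 for Ifnar2, so vehicle moved in the same direction as the drug groups. For Irf7 it was 0.65 and for Irf9 0.24, and no gene of the list was called with vehicle. Of 9 interferon ligand genes listed, 5 were measured, and 4 of them were higher with nintedanib and 2 with B20, with medians of 0.21 and -0.03. Ifng was well above background on 4 of 4 nintedanib arrays, 1 of 4 B20 arrays, 1 of 4 T0 arrays and 0 of 3 vehicle arrays. No difference is given for it, though it is among the 5 genes in these counts and medians. The type I genes Ifna1 and Ifna2 were at 0.10 ± 0.24 and -0.12 ± 0.47 with nintedanib and at 0.18 ± 0.24 and -0.10 ± 0.47 with B20. Ifnk was at 0.21 ± 0.38 and -0.48 ± 0.38. The remaining measured ligand, Ifnl3, was well above background on every array and was among the 4 higher with nintedanib. Its size is not given here. The immunoproteasome, to which FAT10-tagged proteins and interferon responses are linked, had 5 of 5 genes higher in both comparisons with medians of 0.24 and 0.30, led by Psmb8 (0.88 ± 0.29 and 0.52 ± 0.29) and Psmb9 (0.71 ± 0.22 and 0.50 ± 0.22). None of these genes was called against vehicle, and neither was any other gene tested.

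Markers of other cell types were set beside the drug differences. Macrophage markers were higher in 9 of 10 genes with nintedanib and in 6 of 10 with B20, with sums of 68.6 to 102 with vehicle, 82.1 to 117 with nintedanib and 91.0 to 97.8 with B20. Dendritic cell markers were higher in 7 of 8 and 6 of 8, with overlapping sums of 132 to 196, 114 to 169 and 142 to 205. B and plasma cell markers were higher in 5 of 6 in both, with sums of 0.581 to 0.707 with vehicle, 0.744 to 1.13 with nintedanib and 0.591 to 1.63 with B20, and 3 to 4 of these 6 were well above background on every array of a group. T and NK cell markers were higher in 10 of 11 and 9 of 11, with sums of 8.18 to 9.76, 6.87 to 16.8 and 9.82 to 21.2. Adipocyte markers were higher in 8 of 8 in both, with medians of 2.29 and 2.37. Skeletal muscle markers were higher in 7 of 8 and 8 of 8 (medians 1.49 and 2.31), erythroid markers in 3 of 3 in both (medians 0.91 and 1.10), and neutrophil markers in 3 of 6 and 5 of 6 (medians 0.02 and 0.93). The skeletal muscle sum was 6.20 to 49.4 with vehicle, 9.33 to 126 with nintedanib and 9.85 to 961 with B20. In the same order the erythroid sum was 24.3 to 33.2, 35.8 to 109 and 9.82 to 221, and the neutrophil sum 137 to 150, 92.5 to 167 and 133 to 187. Endothelial markers were higher in 3 of 10 with nintedanib and in 1 of 10 with B20. None of these markers was called against vehicle, and neither was any other gene tested. Over the 15 arrays, the r of Isg15 with the log2 sums of the 10 marker lists ranged from -0.468 (endothelium) to 0.453 (neutrophils), with 0.420 for macrophages and 0.395 for T and NK cells. After each group's mean was removed it ranged from -0.448 (skeletal muscle) to 0.614 (mammary epithelium), with 0.0365 for macrophages. The part of these cells in the drug differences was not tested.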

How the data were processed

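Total RNA was hybridised to single-colour Agilent mouse arrays, 1 per sample. Per the file headers, Feature Extraction 10.7.3.1 made the deposited intensity values, background-subtracted processed signals, together with flags for signals well above background and saturation. No spot was saturated. The authors also deposited a table of log2 values, normalised in a way the sources used here do not state, which served as an alternative. From the intensity, log2 processed signals were centred on each array's 75th percentile, control spots and outlier-flagged spots were left out (82 probe and array cases were imputed, none in these genes), spots of a probe were averaged, and probes well above background on at least 3 arrays were kept. For a gene with several probes the probe with the highest mean was used. Symbols came from RefSeq accessions, which named 26056 of 55681 probes.

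A 4-group model was fitted with limma 3.58.1 in R 4.3.3 to 15 arrays, with Benjamini-Hochberg adjustment over 28025 genes or unnamed transcripts, after checking the fit on simulated data. Intervals are 95%. Alternatives were median scaling, quantile normalisation, normal-exponential correction (offset 50, on the median signal, since the mean signal was not used here), the authors' values, other filters, array weights, slide and replicate blocks, and leaving out each array. Deviations of same-numbered arrays from their group means correlated with r from -0.247 to 0.38. That range cannot show whether the numbers pair samples, and the labels do not say. The genes, lists and naming rule were chosen with earlier results of these data known. List genes given with a difference are mostly those past the test or among the 3 with the largest difference. The interferon ligands Ifna1 and Ifna2 fell outside that rule by their nintedanib differences. The genes most like each of the 6 are the 3 with the highest r. The motif search used the 250 bases upstream of each start; over the whole 300-base windows Isg15 was again the only gene of the 6 with a match (3.44% of all promoters). Protein sequences were not analysed here.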

Additional observations from a re-analysis of the deposited data

How the results depend on the processing

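The direction of the 6 genes against vehicle held under every alternative for both drugs, and no gene of the 6 was called there under any. The count of all genes called for nintedanib against vehicle was 12 with array weights and 0 to 2 without 1 array; for nintedanib against B20 it was 1 when those groups were fitted alone and 0 to 1 without 1 array. For vehicle against T0 (1379 genes) it was 681 with median scaling, 895 with no filter on dim probes, 874 with slide as a random block, 5279 with array weights, 17 with those groups alone and 480 to 2098 without 1 array. For nintedanib against T0 (3209) it was 1363 with median scaling, 2029 with the random slide block, 7925 with array weights, 1455 with those groups alone and 1610 to 3915 without 1 array. For B20 against T0 (2670) it was 1607 with the normal-exponential correction, 1184 with median scaling, 1537 with the random slide block, 6064 with array weights, 983 with those groups alone and 919 to 3314 without 1 array. Signs turned where differences were near 0. For vehicle against T0 these were Isg15 (-0.02 with the normal-exponential correction, -0.19 to 0.54 without 1 array), Herc6 (0.07 with array weights, -0.44 to 0.01 without 1 array), Usp18 (-0.56 to 0.20) and Ube2l6 (-0.14 to 0.02). For nintedanib against B20 they were Herc6 (-0.48 on slide 2, -0.01 to 0.32 without 1 array), Isg15 (-0.35 to 0.05) and Uba7 (0 on slide 2). The replicate number as a block gave Usp18 an adjusted p of 0.0522 and Ube2l6 0.0688 for B20 against T0, above the threshold of 0.05, and 2072 genes in that comparison; it changed no other call of the 6 genes. Whether the numbers pair samples is not known. Over all alternatives, the B20 against T0 call was lost in 18 of 26 for Usp18 and 20 of 26 for Ube2l6. Array weights added calls against T0 for Herc6 (1.05, adjusted p = 0.00543, with nintedanib; 0.83, adjusted p = 0.0248, with B20) and for Uba7 with B20 (0.55, adjusted p = 0.0337). The cause of these shifts was not tested.

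With 3 or 4 arrays a group, the SE against vehicle was 0.21 for Uba7, beside differences of 0.57 with nintedanib and 0.34 with B20. For Herc6 it was 0.31, beside 0.96 and 0.76. Ubd is limited by its signal over background on the vehicle arrays, and Herc6 is dim on all arrays. T0 arrays lie on slides, and were scanned on days, of their own.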
